A study of Homo sapiens with 8 samples.

Results

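The human genome holds 228 places on chromosomes 1 to 22 that resemble one of the 4 ZEB1 guide RNAs without matching it fully. They were found by comparing each guide with both strands of hg38 and keeping every site that differed from a guide at 1 to 4 of its 20 bases and lay next to an NGG motif. The window of 5 kb to each side of a site was examined, and the 228 windows were set beside 275650 consecutive windows of 10 kb that cover the same chromosomes. No site had 1 or 2 mismatches. There were 11 sites with 3 mismatches and 217 with 4, of which 23 resembled guide 1, 75 guide 2, 48 guide 3 and 82 guide 4.

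The libraries came from SUM159, an established mesenchymal line of triple-negative breast cancer. Cells of both groups were transduced with a single lentiviral vector, pLV-KRAB, which expresses dCas9-KRAB, and were selected with puromycin. The All gRNA group carried all 4 guides against the ZEB1 promoter and the No gRNA group, the empty vector control, carried no targeting guide. Native ChIP-seq for the histone marks H3K9me3 and H3K4me3 gave 2 libraries per group and mark, and the labels call these biological replicates.

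dCas9-KRAB is a Cas9 protein that cannot cut DNA, joined to the KRAB repressor domain. KRAB binds KAP1, which brings the histone methyltransferase SETDB1 and the heterochromatin protein HP1 to the site, and H3K9me3 is the mark that SETDB1 writes. Cas9 proteins bind DNA beside a short motif, read as NGG for the common enzyme, and tolerate mismatches far from the motif better than mismatches close to it. The guide-like sites were therefore grouped by guide, by the number of mismatches, and by how many of these lay in the 10 bases nearest the motif.

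The 4 exact sites are printed first, because every other sequence is compared with them. They lie within 204 bases of chromosome 10, between 539 and 723 bases downstream of the annotated start of ZEB1, a transcription factor that promotes the epithelial to mesenchymal transition (EMT). The sites of guide 1 and guide 2 fall in exons of ZEB1 transcripts with no coding annotation, those of guide 3 and guide 4 in untranslated exons, and the antisense gene ZEB1-AS1 overlaps them all. Each sequence runs 5′ to 3′ on its own strand, and its last 3 bases are the motif. Coordinates are hg38 and cover the 20 matched bases.
guide 1, chr10:31319025-31319044, minus strand: gggcggtttgcggcaaccgtggg
guide 2, chr10:31319067-31319086, minus strand: agaggctctcgctctacggccgg
guide 3, chr10:31319117-31319136, minus strand: cacctggtttacgacactcccgg
guide 4, chr10:31319209-31319228, plus strand: agcatttagacacaagcgagagg

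The closest relatives of the guides are the sites with 3 mismatches, shown here because binding away from ZEB1 would be sought there first. Capitals mark the bases that differ from the guide.
RABGGTA, like guide 1, chr14:24271422-24271441, minus strand: gggcggGtAgcggcaaccTttgg
near ZNF774, like guide 1, chr15:90333422-90333441, minus strand: ggCcggtttgcgCcaaccAtagg
GPR12, like guide 2, chr13:26759706-26759725, plus strand: TCaggctctGgctctacggcagg
RCAN1, like guide 2, chr21:34545027-34545046, minus strand: agaggctctcgctcCacTgAtgg
CHRM3, like guide 3, chr1:239755641-239755660, minus strand: cacctggtCtCcgacCctcctgg
CSF1R, like guide 4, chr5:150077824-150077843, minus strand: agcCtttagacaAaagcCagagg
near CCNG1, like guide 4, chr5:163144210-163144229, minus strand: aTcatttagacacaagTgaTtgg
DACT2, like guide 4, chr6:168309360-168309379, plus strand: TgcatttagacacaGgcgTgggg
NOXA1, like guide 4, chr9:137424381-137424400, minus strand: agcTttAagacacaagAgagggg
near KL, like guide 4, chr13:32924882-32924901, minus strand: aCcatttagacacaagAgTgagg

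The GPR12 site is the single site with 3 mismatches that kept all 10 bases nearest the motif, with the changes A1T, G2C and C10G counted from the guide's 5′ end. The other 10 sites of this class had between 1 and 3 changed bases there. An additional site like guide 4, in an intron of TUSC3, belongs to the class and is given without its sequence.

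Among the sites with 4 mismatches, 5 are printed for different reasons. The sites near USP12 and near HSF2 also kept the 10 bases nearest the motif. The sites in FAM20C and NRXN3 were the ones called different between the groups, and the site in RIMBP3 stands for a sequence that occurs at 3 places.
near USP12, like guide 2, chr13:26920406-26920425, plus strand: aAaTgctcAGgctctacggccgg
near HSF2, like guide 4, chr6:121930056-121930075, minus strand: agGattGaACcacaagcgagagg
FAM20C, like guide 2, chr7:260496-260515, plus strand: GgaggctctcgctGGacgTctgg
NRXN3, like guide 2, chr14:79510944-79510963, minus strand: agagTctctTgctcAacAgctgg
RIMBP3, like guide 1, chr22:18611490-18611509, minus strand: gggcggtCGgcggcGGccgttgg

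The sites were spread over all 22 chromosomes, with 109 on the plus strand and 119 on the minus strand. On chromosome 10 there were 10 sites, and the nearest lay 2127462 bases from the guides, so that no guide-like window shared the ZEB1 locus. By GENCODE annotation, 94 sites lay in introns of protein-coding genes, 11 in untranslated exons, 5 in coding exons and 72 between genes. A protein-coding gene held 48.7% of the sites, against 45.3% of window centres. Within 1 kb of the start of a protein-coding gene lay 13 sites, or 5.70%, against 1.27% of window centres. The median GC content of the 10 kb around a site was 44.03%, and that of the genome windows 39.8%. The sites are therefore richer in GC and in gene starts than the windows they are set beside.

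H3K9me3 was read as the covered share, the percentage of the bases of a window that lay under a deposited peak of that library. The main reading kept peaks with q ≤ 0.05, and a second reading used the full lists, that is every deposited peak, many of them weak. Here "with guides" stands for the All gRNA libraries and "without guides" for the No gRNA libraries, replicate 1 before replicate 2. The H3K9me3 lists held 16173 and 14728 peaks at q ≤ 0.05 in the All gRNA libraries and 9473 and 31625 in the No gRNA libraries. The covered length at that threshold was lowest in No gRNA replicate 1, at 92.5 Mb, and highest in No gRNA replicate 2, at 216 Mb. Over the full lists, the lists covered 656 to 692 Mb, so the full lists are closer to each other in yield. A window was called higher in a group when both of its libraries exceeded both libraries of the other by 25 percentage points or more. The lists carry no read counts, so the depth behind each share is unknown.

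The windows around the exact ZEB1 sites carried H3K9me3 with guides and little or none without guides. At q ≤ 0.05 the mean covered share of the 4 exact windows was 40.1% and 73.7% with guides, and 0% in both libraries without guides. The groups did not overlap. The All gRNA mean was 56.9% ± 23.7 (SD, n = 2), and the exact two-sided permutation test gave p = 0.33, the smallest value that 2 against 2 libraries allow. In the full lists, the shares were 75.4% and 73.7% against 9.14% and 0%, a difference of 69.9 points. The 4 exact windows overlap almost entirely and are 1 locus, not 4 measurements.

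No H3K9me3 peak covered the guide positions themselves in any library. In the full lists, the nearest peaks of All gRNA replicate 1 ended 220 bases upstream and began 874 bases downstream of the stretch that holds the guides. Those of All gRNA replicate 2 lay 145 bases upstream and 1217 bases downstream. The mark thus flanked the target. In No gRNA replicate 1 the nearest peaks were 20804 bases upstream and 1560 downstream, and in No gRNA replicate 2 they were 12247 and 7917 bases away. In the 1 to 5 kb to each side of the exact sites, peaks of the full lists covered 85.2% and 82.5% with guides, against 11.4% and 0% without guides. That flank is the yardstick for the guide-like sites.

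Over the guide-like sites the groups lay close to each other. At q ≤ 0.05 the mean covered share of the 228 windows was 4.67% and 4.62% with guides and 1.48% and 6.34% without guides. Both All gRNA values lay between the No gRNA values. The group means were 4.64% ± 0.03 and 3.91% ± 3.44 (SD, n = 2 each), and their difference of 0.729 points was smaller than the spread of the No gRNA libraries. Over all 10 kb windows the same difference was 0.84 points.

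Counting all deposited peaks, the means were 24.0% and 27.3% with guides and 25.01% and 26.7% without guides. The groups again overlapped, at 25.7% ± 2.31 and 25.9% ± 1.21 (SD, n = 2 each). The difference was −0.211 points, while all 10 kb windows differed by 0.758 points. The genome value varied with GC content. In 4 classes of windows of nearly equal size, from low to high GC, it was 2.93, 2.14, −0.119 and −1.92 points, and 115 of the 228 sites lay in the class of highest GC. Weighted to the classes in which the sites lie, the windows differed by −0.27 points, close to the value of the sites. The median difference per site was 0 in both readings.

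**Figure D1:**
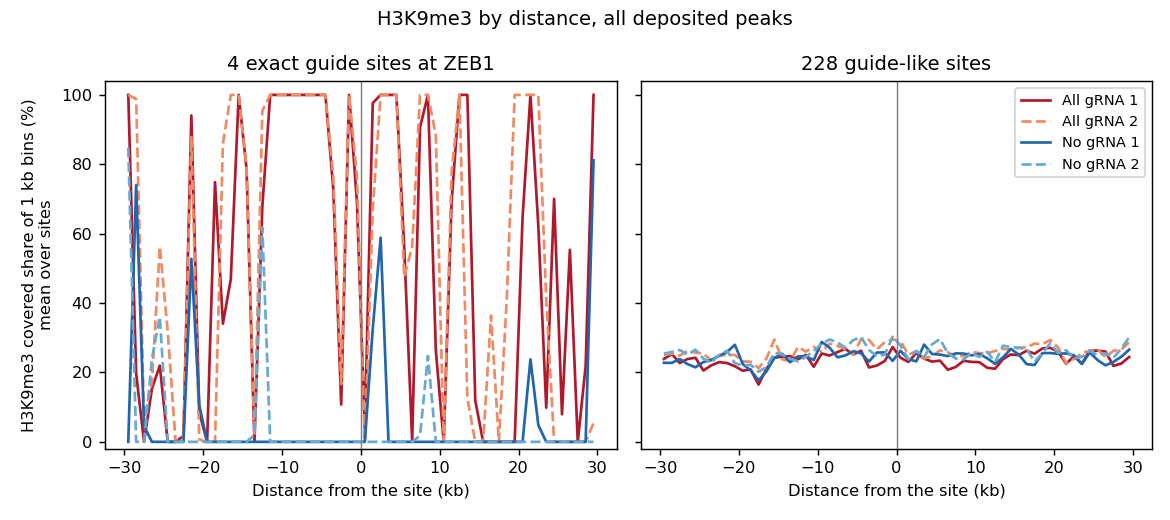
Covered share of H3K9me3 in 1 kb bins against the distance from the site in kb, averaged over the 4 exact guide sites (left) and the 228 guide-like sites (right), with every deposited peak and 1 line per library. Around the exact sites the All gRNA lines reach 100% on both sides of a dip at the guides, and around the guide-like sites all 4 lines stay close together along the whole span.

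Averaged over the 228 guide-like sites, there was no flank like that at ZEB1. A mean over so many sites could not show a flank at a few single sites. In the 1 to 5 kb to each side, peaks of the full lists covered 23.6% and 26.8% with guides and 25.1% and 26.2% without guides. At 5 to 10 kb the values were 24.0% and 26.1% against 25.7% and 27.2%, the largest difference between the groups of the 5 distances examined, at −1.35 points. At 20 to 30 kb from the sites the values were 23.7% and 25.5% against 24.1% and 25.4%. In the 1 kb nearest the sites they were 25.8% and 29.3% against 24.8% and 29.0%. At each distance the groups differed by less than the 2 libraries of either group did.

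Most sites, like most of the genome, carried no H3K9me3 at the stricter reading. At q ≤ 0.05, 188 of the 228 windows, or 82.5%, held no peak in any library, against 79.9% of all 10 kb windows. A peak in every library was held by 5 of them, and by 10854 of the 275650 windows. The All gRNA mean was above the No gRNA mean at 18 sites (7.89%, against 9.30% of all windows), below it at 20 (8.77%, against 8.93%) and equal at 190. Across the full lists, 21 windows (9.21%, against 11.2% of all windows) were empty in all libraries. A peak in each was held by 121, and by 151976 of the 275650 windows. The All gRNA mean was above at 97 sites (42.5%, against 42.0%), below at 105 (46.1%, against 43.9%) and equal at 26. In both readings the shares of sites above, below and empty lay near those of all windows, so these counts are no result about the sites.

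The calls were too few to compare their rate with that of all windows. At q ≤ 0.05, 1 of the 228 sites was called higher in All gRNA, where 0.336% of all 10 kb windows were, and 1 was called lower, where 0.0602% of all windows were. Once weak peaks were included, no site was called in either direction, beside 0.864% of all windows higher and 0.214% lower. Among windows of the highest GC class, which holds 115 of the sites, 0.378% were higher and 0.384% lower. When the peaks of each library were ranked by q and kept up to the same covered length, again no site was called, beside 0.235% of all windows higher and 0.216% lower. The exact ZEB1 sites were not called with equal covered length either, at 0% and 19.3% with guides and 0% in both libraries without guides, so this reading shows nothing about an absence at the guide-like sites. A single call is 0.439% of the sites, and both calls turned on the q threshold.

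The site called higher lies in an untranslated exon of FAM20C, which encodes a kinase of the secretory pathway. It resembles guide 2 with 4 mismatches, 3 of them in the 10 bases nearest the motif. At q ≤ 0.05 its window was covered at 93.3% and 94.3% with guides and at 0% in both libraries without guides. In the full peak lists, the shares were 93.3% and 94.3% against 89.0% and 95.9%, and the groups overlapped. The strongest peak in the window had q = 0.0445 and 0.0155 with guides and 0.221 and 0.0552 without guides. A broad peak was thus deposited there in all 4 libraries, and the threshold of 0.05 fell between them.

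The site called lower lies in an intron of NRXN3, which encodes a neurexin, a presynaptic adhesion protein. It also resembles guide 2 with 4 mismatches, 2 of them near the motif. At q ≤ 0.05 its window was covered at 0% in both libraries with guides and at 46.0% and 89.5% without guides. With every deposited peak the shares were 90.1% and 100% against 75.3% and 89.5%, so the direction turned. The strongest peaks had q = 0.0536 and 0.0828 with guides and 0.0294 and 0.0323 without guides, on either side of the same threshold.

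**Figure D2:**
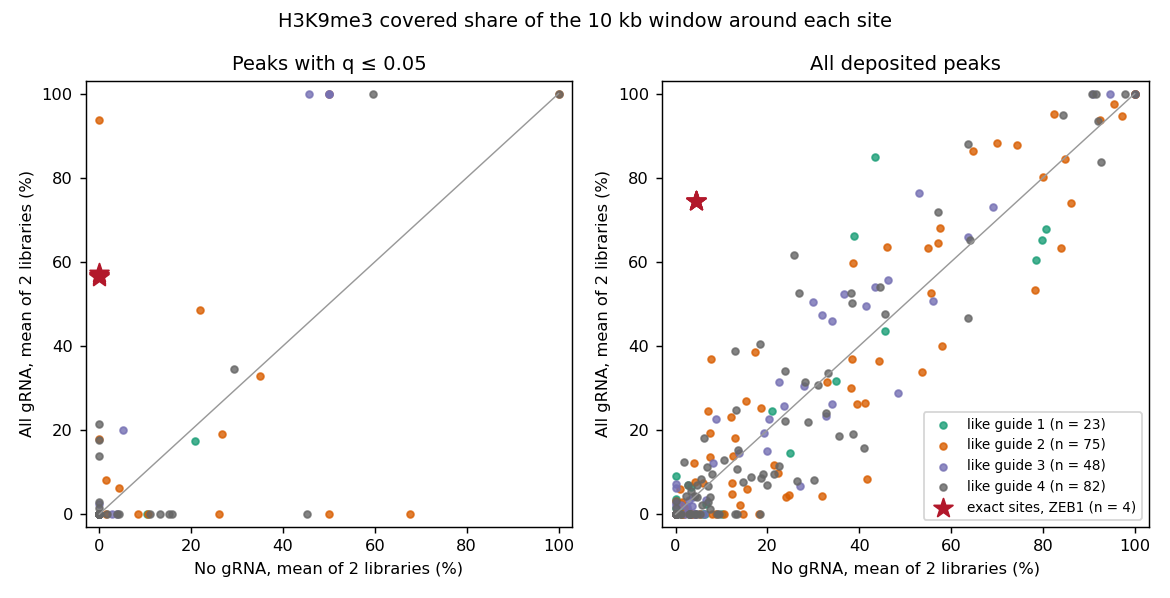
Mean H3K9me3 covered share of the 10 kb window in the 2 All gRNA libraries (vertical axis, percent) against the 2 No gRNA libraries (horizontal axis, percent), 1 point per site, coloured by guide, with equality as a line and the exact ZEB1 sites as stars. With q ≤ 0.05 (left) most points lie at 0 on both axes, and with every deposited peak (right) the guide-like sites scatter along the line while the stars stand apart at 74.5% against 4.57%.

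The size of the difference at ZEB1 was not met by the guide-like sites in the full lists. None of the 228 sites was higher with guides by as much as the exact sites, and 6 of the 275650 windows, which include the ZEB1 locus, were. With so few windows in the whole genome, a count of 0 among 228 sites is no result about the sites. At q ≤ 0.05 the difference at FAM20C exceeded that at ZEB1, and 695 windows reached it. In the full lists the difference per site ran from −33.5 to 41.6 points. The central 95% of all windows lay between −20.5 and 26.7 points, and this range held 218 of the 228 sites, or 95.6%, with 6 below and 4 above it. The sites thus varied about as much as the genome did.

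The sites with 3 mismatches carried no peak in either library with guides at q ≤ 0.05. Of these 11 windows, 9 held no peak in any library, or 81.8%, near the 79.9% of all 10 kb windows. A peak was present in 10.4% and 9.85% of all windows with guides, so the empty windows are no result about this class. The other 2 held one in a library without guides, at 3.23% of the window in replicate 1 for CSF1R, the receptor of the macrophage growth factor CSF1, and at 30.6% in replicate 2 for the site near CCNG1, which encodes cyclin G1. Both of these peaks were thus in cells without guides.

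Over the full lists, the site of RABGGTA, a subunit of the enzyme that attaches lipid groups to Rab proteins, was covered at 0% and 2.75% with guides and at 0% in both libraries without guides. This site lies in an untranslated exon 180 bases from the start of the gene and RABGGTA is 1 of the off-target genes that the study predicted. The site near ZNF774, a zinc finger gene, was covered at 2.95% and 0% with guides and at 4.16% and 0% without guides. The site of CHRM3, a muscarinic acetylcholine receptor, was covered at 0% and 12.7% with guides and at 0% in both libraries without guides. In all 3 windows the values of the groups overlapped or met at 0.

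In the same lists, the site in a coding exon of GPR12, an orphan G protein-coupled receptor, had 3.35% and 24.4% with guides and 18.4% and 6.45% without guides, with the All gRNA values on either side of the others. The site in an intron of RCAN1, a regulator of calcineurin, had 16.5% and 0% with guides and 44.7% and 38.7% without guides. RCAN1 was the site with the largest lower difference of the 228, at −33.5 points, and the gap between the groups, at 22.2 points, did not reach the limit of 25. The CSF1R site had 7.79% and 28.3% against 3.23% and 9.03%, and the groups overlapped.

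The full-list shares of the site near CCNG1 were 93.7% and 82.5% with guides and 68.3% and 59.3% without guides. Here the groups did not overlap, with a difference of 24.3 points, and the nearest values lay 14.2 points apart, under the limit. The site in an intron of DACT2, a gene of the Wnt pathway, had 87.0% and 100% against 84.0% and 100%, so that it was covered almost fully with and without guides. The sites of TUSC3, a subunit of the oligosaccharyltransferase, and NOXA1, an activator of an NADPH oxidase, were at 0% in all 4 libraries. The site near KL, which encodes klotho, was at 6.44% in No gRNA replicate 2 and at 0% in the other 3.

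**Figure D3:**
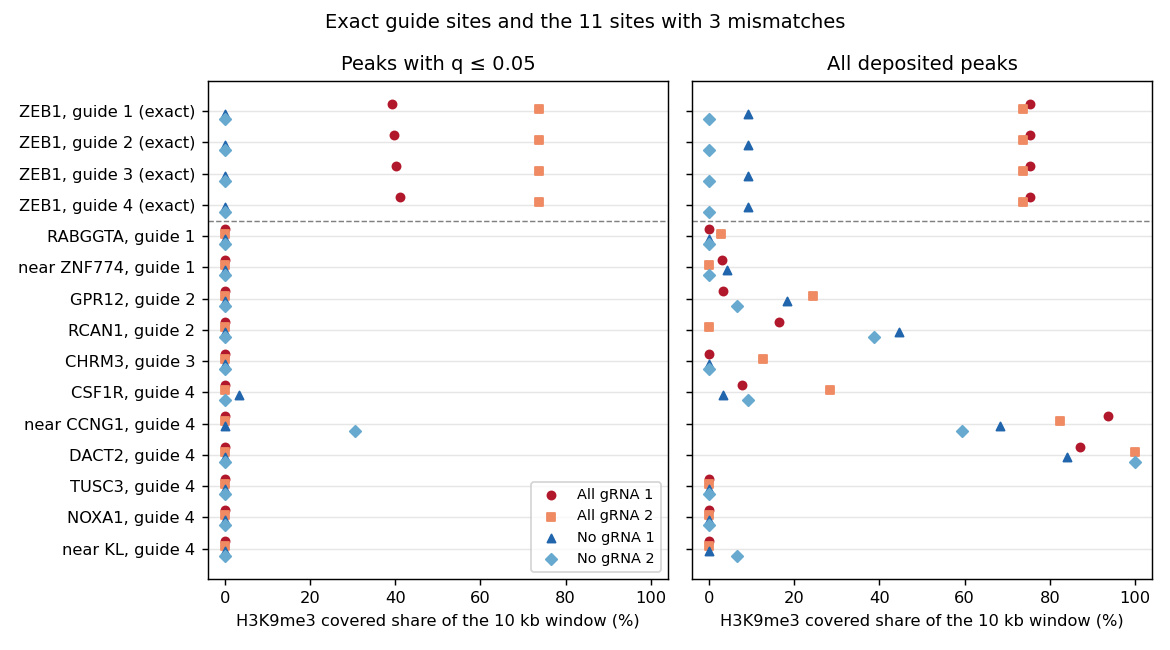
H3K9me3 covered share of the 10 kb window (percent) in each of the 4 libraries at the 4 exact ZEB1 sites (above the dashed line) and the 11 sites with 3 mismatches, with peaks at q ≤ 0.05 (left) and every deposited peak (right). The exact sites separate the groups in both panels, and among the other sites no All gRNA point leaves 0% in the left panel.

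As a class, the 11 sites with 3 mismatches had mean shares of 0% in both libraries with guides and of 0.294% and 2.78% without guides at q ≤ 0.05. In the full lists, their means were 20.99% ± 2.53 with guides and 20.1% ± 0.178 without guides (SD, n = 2 each), a difference of 0.873 points. The 217 sites with 4 mismatches differed by 0.844 points at q ≤ 0.05 and by −0.266 points in the full lists. Both full-list differences were smaller than the spread between the libraries with guides. In the full lists the 6 sites like guide 4 with 3 mismatches had 31.4% and 35.1% with guides and 25.9% and 29.1% without. At q ≤ 0.05 they had 0% in both libraries with guides and 0.538% and 5.09% without. The 2 sites like guide 2 with 3 mismatches lay the other way in the full lists, at 9.935% and 12.2% against 31.5% and 22.6%. So did the 76 like guide 4 with 4 mismatches, at 20.93% and 22.48% against 22.69% and 22.53%. These differences were not tested.

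Only 3 of the 228 sites had no mismatch in the 10 bases nearest the motif, and none of them held a peak at q ≤ 0.05 in any library, as was so for 79.9% of all 10 kb windows. They are the GPR12 site and those near USP12, which encodes a deubiquitinase, and near HSF2, which encodes a heat shock factor. Counting all deposited peaks, the site near USP12 had 0% and 8.09% with guides and 25.5% and 22.6% without guides. In the same lists the site near HSF2 had 6.33% in No gRNA replicate 2 and 0% in the other libraries. At 2 of the 3 sites the mean was thus lower in the cells with guides.

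The other classes of mismatch position gave differences of either sign. Across the full lists, the difference was −3.66 points over the 32 sites with 1 mismatch near the motif, 1.22 over the 100 with 2, 0.348 over the 80 with 3 and −4.56 over the 13 with 4. In the classes with 1 and with 4, both libraries with guides lay below both without, at 16.9% and 15.4% against 19.3% and 20.3% for 1 mismatch, and at 28.7% and 32.0% against 35.4% and 34.4% for 4. The 3 sites with none lay the same way, at 1.12% and 10.8% against 14.6% and 11.8%. The libraries of the classes with 2 and with 3 overlapped, and no class was higher in both libraries with guides. With 2 libraries per group these differences were not tested. In the main reading the class with 4 overlapped, at 2.18% and 3.64% with guides against 0.646% and 8.48% without. The class with 1 then met at 0%, with 0% in both libraries with guides against 0% and 0.684% without. In the full lists, genome windows of the highest GC class differed by −1.92 points. The classes were not set beside windows of like GC, so the lower values are no result about mismatch position. An unbroken match of 5 or more bases next to the motif was present at 43 sites, which differed by −1.72 points in the full lists. It was absent at 185, which differed by 0.140 points.

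A stricter kind of likeness was also sought, sites with the 12 bases next to the motif unchanged but 5 or more mismatches further away. There were 4 such sites, which are not among the 228, and none held a peak at q ≤ 0.05. Once weak peaks were included, their mean shares were 18.0% and 27.9% with guides and 18.9% and 13.2% without guides, so the groups overlapped.

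**Figure D4:**
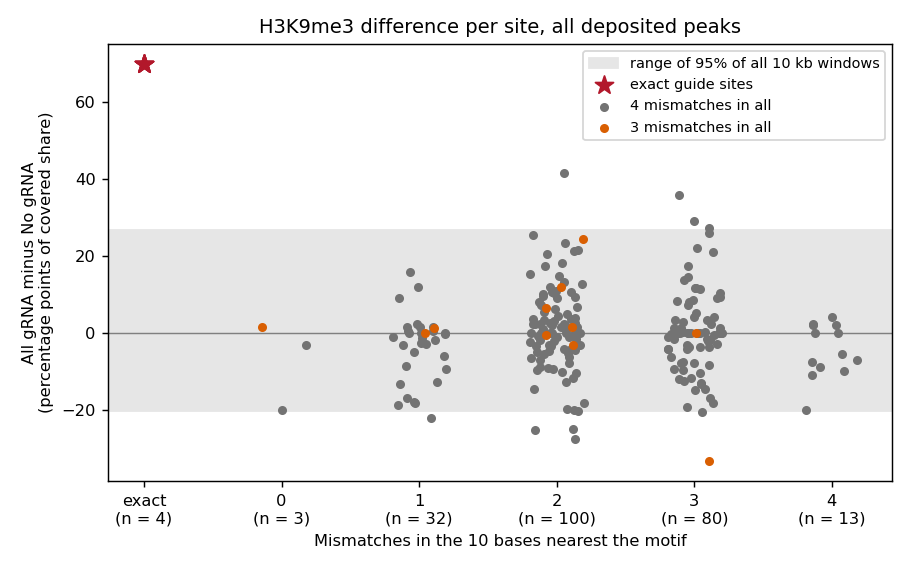
Difference in H3K9me3 covered share, All gRNA minus No gRNA in percentage points with every deposited peak, for each site (points, shifted sideways at random for visibility) by the number of mismatches in the 10 bases nearest the motif, with the exact ZEB1 sites as stars. The grey band holds 95% of all 10 kb windows, from −20.5 to 26.7 points, and 218 of the 228 sites lie in it while the exact sites lie far above at 69.9 points.

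By guide, the differences at q ≤ 0.05 were −0.597 points for sites like guide 1, 0.295 for guide 2, 3.43 for guide 3 and −0.086 for guide 4. The value for guide 3 goes with No gRNA replicate 1, in which none of its 48 windows held a peak, while in the other No gRNA library their mean was 6.57% and with guides 6.94% and 6.50%. That library also had the shortest covered length of all. In the full peak lists, the difference for guide 3 was 1.92 points, with 26 sites above and 16 below, beside means of 25.7% ± 2.57 and 23.8% ± 0.839 (SD, n = 2 each). The other guides gave −0.0233, −1.41 and −0.419 points, and for each guide this was less than the SD of one of its groups. At q ≤ 0.05 the libraries of guide 1 did not overlap, at 0.717% and 0.798% with guides and 1.61% and 1.096% without, a difference that rests on 2 of its 23 windows.

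Gene starts are where a repressor would act on transcription, and 13 sites lay within 1 kb of one. At q ≤ 0.05, 11 of them, or 84.6%, held no H3K9me3 peak in any library. That was near the 79.9% of all 10 kb windows, so the empty windows are no result about gene starts. Among the 11 were RABGGTA, LRRC58, NEU3 (a sialidase), GDF9 (a growth factor of the oocyte) and the sites near DDI2, ROBO3, OR1F1 and CRACD. FXR1, which encodes an RNA-binding protein, had 42.7% in All gRNA replicate 1 and 0% in the other 3 libraries. The site near PCP4L1 had 38.2% in All gRNA replicate 1 and 53.6% in No gRNA replicate 2. Neither of these held in both libraries of a group. With every deposited peak FXR1 had 43.4% and 64.7% with guides and 65.6% and 23.4% without guides, and the 13 sites as a class differed by 0.344 points.

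Genes tied to the study's question were rarely near a site. None of the 18 epithelial and adhesion genes and 1 of the 8 EMT genes had a guide-like site within 5 kb. That gene was TWIST1, a transcription factor of the EMT, with a site like guide 4 at 4 mismatches. At q ≤ 0.05 its window was at 21.9% in No gRNA replicate 2 and at 0% in the other 3 libraries. Over the full lists, it was at 36.3% and 25.1% with guides and at 32.1% and 30.02% without guides, and the groups overlapped.

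Of 6 genes that the study lists as predicted off-targets, 2 held a site, RABGGTA and ROBO2. Several target sequences in that list are not followed by NGG, so such genes could lack a site under the rule used here. ROBO2, a receptor of axon guidance, has a site like guide 1 with 4 mismatches in an intron, with no peak at q ≤ 0.05 in any library. In the full lists, it had 28.0% and 35.2% with guides and 28.9% and 40.8% without guides. Neither gene separated the groups in H3K9me3. By RNA-seq, the study reported no significant change in transcript abundance of genes near its predicted off-targets.

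Many sites are copies of each other. The 228 sites have 206 different sequences, and 10 sequences occur at more than 1 site, at 32 sites in all. The sequence printed for RIMBP3 lies in untranslated exons of RIMBP3, RIMBP3B and RIMBP3C on chromosome 22, within 420 bases of their starts. Counting all deposited peaks, RIMBP3 had 8.03% and 10.0% with guides and 0% in both libraries without guides, RIMBP3B had 2.32% in No gRNA replicate 2 alone, and RIMBP3C had 7.20% in All gRNA replicate 2 alone. These genes are near-identical copies, so reads could be placed at any of them and their values are uncertain. Another sequence like guide 2 occurs at 9 sites, near ANKRD18A, ANKRD18B, SPATA31A6 and other duplicated genes, and the difference over these 9 ran from −7.57 to 20.97 points.

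Some windows were covered in every library, and they are described here for that reason. At q ≤ 0.05 those near LIPI (like guide 2) and near UQCRFS1 (like guide 4) were at 100% in all 4 libraries. Full coverage at that threshold was seen in 3.07% of the sites in each library with guides and in 0.877% and 2.63% without guides, beside 4.10% and 3.98% against 2.12% and 3.83% of all windows. Across the full lists, 9 windows were covered at 90% or more in each library. The site itself lay inside a peak at q ≤ 0.05 at 12 and 10 of the 228 sites with guides and at 4 and 14 without guides. These are 5.26% and 4.39% against 1.75% and 6.14%, while for the centres of all windows the shares were 6.59% and 6.30% against 3.37% and 7.84%.

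H3K4me3, the mark of active promoters, was present near some of the sites. Counted within 1 kb, 14 and 4 of the 228 sites had a peak at q ≤ 0.05 in the libraries labelled All gRNA replicates 1 and 2, and 7 and 26 in those labelled No gRNA replicates 1 and 2. In any library 31 sites had one, or 13.6%, against 6.61% of all window centres. Of the 13 sites within 1 kb of a gene start, 8 had one in at least 1 library. The mark was present in every library at 3 sites, those of LRRC58, IRX2 and near ANXA2R, which were named after their values were seen.

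No comparison of the groups was made with H3K4me3. In the names of the deposited tables, the condition of 2 of the 4 H3K4me3 libraries differs from the label, 1 in each labelled group, and the mark at the exact guide sites follows those names rather than the labels. At q ≤ 0.05 it covered 0% and 100% in the libraries labelled All gRNA replicates 1 and 2, and 0% and 100% in those labelled No gRNA replicates 1 and 2. The start of the mesenchymal marker VIM carried the mark in 3 of the 4 libraries, AXL in 3, CDH2 in 2 and FN1 in 1. The epithelial EPCAM, CDH1 and GRHL2, the luminal ESR1, the immune PTPRC and the endothelial PECAM1 had none at q ≤ 0.05, and the luminal GATA3 had it in 1 library. This split depends on the threshold. With every deposited peak, EPCAM, CDH1 and GATA3 had the mark in all 4 libraries, as VIM, AXL, CDH2 and FN1 did. GRHL2 and PECAM1 then had it in 3, and ESR1 and PTPRC in none.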

How the data were processed

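According to the study's methods, fastp trimmed the native ChIP-seq reads and bowtie2 placed them on hg38. Exclusion-list and duplicate reads were removed before MACS2 called peaks. The submitters' processing notes list bcl2fastq 2.17, Trimmomatic 0.33, Bowtie 1.1.2 and MACS2 2.1.0 instead, and which set made the lists is not known here. One broad peak list per library was deposited, with replicates not pooled. For each peak the deposited columns are a score, a ratio (fold enrichment), a −log10 p-value and a −log10 q-value, as written by the authors' peak caller. Score and ratio were not analysed.

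The guides were located in the hg38 sequence at the ZEB1 start, and all sites with up to 4 mismatches next to NGG were enumerated on chromosomes 1 to 22 and annotated with GENCODE release 44. All peaks of the lists ended inside the chromosomes of that genome. Peaks were filtered (q ≤ 0.05, or none), merged per library, and turned into the covered share of each window with Python 3.11.15, numpy 2.4.6 and pandas 2.3.3. Genome windows needed at least 5000 known bases. The enumeration and the shares were checked on simulated data. Reads were not analysed here, so depth is unknown.

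With peak lists of 2 against 2 libraries no model per site was fitted. A site was called at a gap of 25 points, and the ZEB1 value was tested by exact permutation over 6 labelings. Groups and replicate numbers came from the sample labels. The labels do not say how the replicates were separated, so the p-value measures only the spread between these libraries. Sites named were the exact sites, called sites, sites with 3 mismatches and none near the motif, up to 10 within 1 kb of a coding start, and those at listed genes. The remaining sites with 3 mismatches were named to complete their class, and the RIMBP3 group, ANKRD18A, ANKRD18B, SPATA31A6 and the sites near LIPI and UQCRFS1 after their values were seen. The members and lists were chosen with earlier results of these data known. Alternatives covered the q threshold, equal covered length, window size, gap size, mismatch limits, the NAG motif, merged windows, each library left out and the replicate block.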

Additional observations from a re-analysis of the deposited data

How the results depend on the processing

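The 4 results (sites called higher, sites called lower, mean difference over the sites, difference at ZEB1) were recomputed under alternatives, 60 values in all. Of these, 23 moved, 5 reversed and 32 were counted as neither. For the mean difference only a change of sign was counted, so its size varied among the 32. It was 0.000592 points at q ≤ 0.001, 0 with no mismatch near the motif and 3.16 without No gRNA replicate 2. The counts of 1 site called higher and 1 called lower both became 0 with every deposited peak, with equal covered length, at the q limits of 0.01 and 0.001, with up to 3 mismatches, and with no mismatch near the motif. With a gap of 50 points the lower count became 0, and with NAG motifs added, which gave 487 sites, the higher count became 2. The mean difference of 0.729 points reversed to −0.211 with every deposited peak, −0.149 at q ≤ 0.01, −0.335 with equal covered length and −1.54 with up to 3 mismatches. The ZEB1 difference of 56.9 points became 9.66 with equal covered length and also at q ≤ 0.01, 0 at q ≤ 0.001 and 20.0 in a window of 1 kb to each side. Leaving out a library gave 1 to 7 sites higher, 1 to 7 lower, a mean difference of −1.70 to 3.16 and a ZEB1 difference of 40.1 to 73.7. Without All gRNA replicate 1 the higher count was 4, without All gRNA replicate 2 it was 2, and it was 7 when No gRNA replicate 2 was left out. The lower count was 7 without No gRNA replicate 1, and the mean difference reversed to −1.70 without No gRNA replicate 1.

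Over the genome windows, the deviations of same-numbered libraries had a correlation of −0.0469 at q ≤ 0.05 and 0.0102 with every deposited peak. With 2 libraries per group, this cannot show whether same-numbered libraries were prepared together. The replicate block gave 1 and 1 called sites, 0.729 points and, for ZEB1, 56.9 points with an exact p of 0.50. With 2 libraries per group, unknown depth and peaks in place of counts, a change smaller than the spread between libraries could not be detected at a site.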

Other observations

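The 2 guide-like sites with the largest higher differences in the full peak lists, and 1 with a lower difference, are named here after their values were seen and had no H3K9me3 peak at q ≤ 0.05 in any library. The site near OLFM1, which encodes an olfactomedin of the nervous system, resembles guide 1 with 4 mismatches and had 74.1% and 95.9% with guides (All gRNA) against 55.7% and 31.1% without (No gRNA), a difference of 41.6 points. The site near GIMAP6, a GTPase gene of immune cells, resembles guide 4 with 4 mismatches and had 51.1% and 72.0% against 36.9% and 14.5%. In both windows the groups did not overlap, and the gaps between the nearest values stayed under 25 points. How many of all 10 kb windows also separate the groups was not counted, so this separation is no result about the sites. In the full lists 95.6% of the 228 sites lay inside the range that holds 95% of all windows, and 4 lay above it. The sites near OLFM1 and GIMAP6 are among these 4 and do not set the guide-like sites apart from the genome. In the opposite direction, a site like guide 4 in an intron of PIEZO2, a mechanosensitive channel, had 15.6% and 15.9% with guides and 44.3% and 37.9% without. Of these 3 sites, none lay within 1 kb of a gene start.

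Sites outside protein-coding genes carried more H3K9me3 than those inside. Genome windows were not split in this way, so the contrast is no result about the guide-like sites. With every deposited peak the 117 sites outside had means of 34.7% ± 2.78 with guides and 32.8% ± 1.44 without, and the 111 inside had 16.1% ± 1.81 and 18.6% ± 0.976 (SD, n = 2 each).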
